A study of Homo sapiens with 6 samples.

Results

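Collagens, laminins and the enzymes that modify and crosslink collagen were followed in A549 cells, a human lung adenocarcinoma line labelled wild type, in an induced dormant state and after activation with conditioned medium of osteoclasts, which are cells that resorb bone. Every row of the count table whose symbol begins as a collagen chain (COL), a laminin chain (LAMA, LAMB or LAMC), a prolyl 4-hydroxylase alpha subunit (P4HA) or a lysyl hydroxylase (PLOD), or is LOX or an LOX-like gene, was taken, which gave 67 of 19470 genes. There were 44 collagen chains, 12 laminin chains and 11 enzymes. Each state had 3 libraries, dormant and activated, replicates 1 to 3. The sample titles mark dormant libraries SF and activated libraries OC, without spelling these codes out. The sources used here do not say how dormancy was induced, in which medium dormant cells were kept or how long either state lasted, so activation and any other difference in culture cannot be told apart.

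As background, a collagen is a triple helix of 3 chains. Fibrillar collagens assemble into the cables of connective tissue, while type IV collagen and laminin form the 2 sheet-like networks of the basement membrane on which lung epithelium rests. Newly made collagen chains are hydroxylated on proline by the prolyl 4-hydroxylases, which stabilises the helix, and on lysine by the lysyl hydroxylases, which prepares crosslinks. After secretion, the lysyl oxidases convert lysine residues so that neighbouring molecules become crosslinked. A laminin is a cross-shaped molecule of 1 alpha, 1 beta and 1 gamma chain.

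Activated cells had higher transcript levels of type V collagen, of the laminin chains LAMA5 and LAMB1, and of most of the collagen-modifying enzymes. Of the type IV collagen chains, COL4A2, COL4A5 and COL4A6 rose by less than 2-fold, COL4A3 fell 2.92-fold, COL4A4 fell 1.23-fold and COL4A1 did not pass. COL5A1 rose 7.44-fold, PLOD2 7.05-fold, COL5A2 6.88-fold and LAMA5 2.33-fold. Of the 67 members, 47 had enough counts to be tested, and 43 of those had enough in both groups. In edgeR's quasi-likelihood test at an adjusted p of 0.05, 32 of the 47 rose, 7 fell and 8 did not pass. Among all 13336 tested genes 73.7% passed, 36.5% higher (4868) and 37.2% lower (4962) in activated cells. By class, 100% of tested fibrillar collagens passed, 75% of basement membrane collagens, 81.8% of laminins and 80% of enzymes. Scaled by total counts instead of TMM factors, 3941 of all genes were higher and 5998 lower, with 30 members higher and 8 lower, and the median over all genes went from -0.02 to -0.16 on the log2 scale. At least a 2-fold rise was called for 21 tested members, against 11.2% of all tested genes, and at least a 2-fold fall for 3, against 11.0%. The values of the 2 groups did not overlap for 42 of the 47 members, against 76.5% of all tested genes. The median log2 fold change of the tested members was 0.54. In a bulk sample, a higher level in each cell and a larger share of cells with the transcript cannot be told apart.

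**Figure D1:**
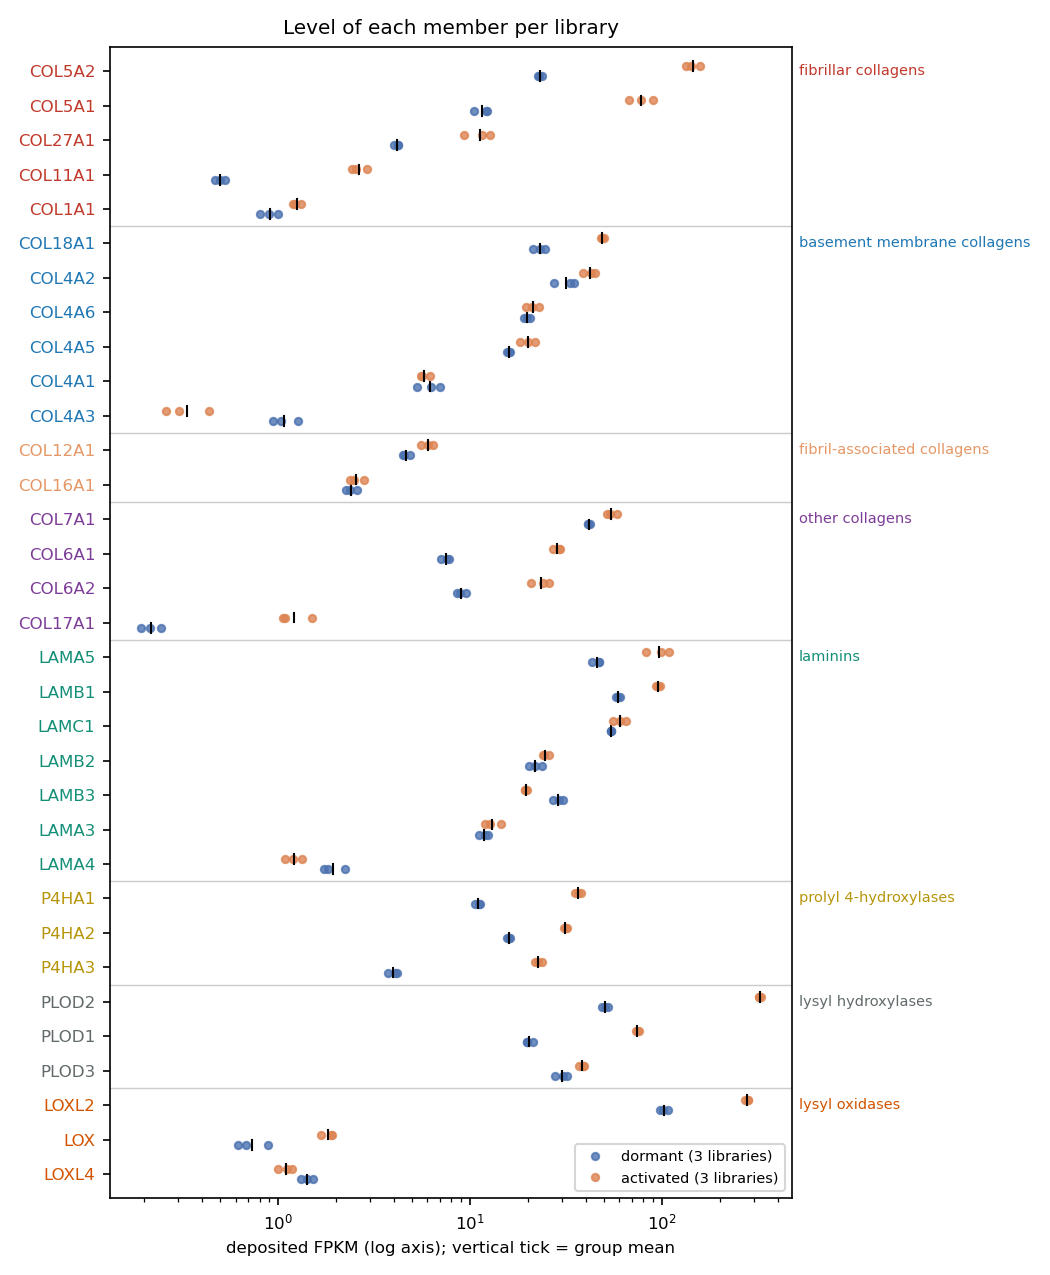
Deposited FPKM (log axis) of 33 tested members with a mean of at least 1 FPKM in either group, by class; each point is 1 library, blue dormant and orange activated, and the vertical tick is the group mean. PLOD2, COL5A1 and COL5A2 lie far to the right in all 3 activated libraries, and the points of the 2 groups overlap for COL4A1, COL4A6, COL16A1 and LAMA3.

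Compared per length on the FPKM scale, the members described here with high levels in dormant cells were, in order, LOXL2 (102 ± 4.91 FPKM, SD, n = 3), LAMB1 (58.9 ± 1.17), LAMC1 (54.0 ± 0.0594) and PLOD2 (50.5 ± 1.64). In activated cells the order was PLOD2 (323 ± 3.82), LOXL2 (277 ± 5.24), COL5A2 (144 ± 12.2), LAMA5 (96.9 ± 13.3) and LAMB1 (95.2 ± 2.48). LAMA5 and LAMB1 did not differ beyond the spread of LAMA5 in activated cells. These levels depend on the gene length the authors divided by. For COL4A1 it was 15595 bases, against 6616 for the longest coding transcript in GENCODE 29. With the shorter length the dormant level of COL4A1 would be 14.6 FPKM in place of 6.20. Such a length cancels out of the fold change of a single gene. It does not cancel out of summed FPKM, shares of such sums, fits on FPKM with an added constant, or a correction for gene length. Nor does it cancel out of the level of an FPKM ratio of 2 genes, though it does out of that ratio's relative change.

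Among the 11 fibrillar collagen chains, 6 were tested, of which 5 rose and 1 fell, with a median log2 fold change of 2.06 against -0.02 for all tested genes. COL5A1 (chromosome 9, 134641803 to 134844843) and COL5A2 (chromosome 2, 189031898 to 189441111) encode the chains of type V collagen, which sits in the core of collagen fibrils and sets their diameter. COL5A1 stood at 126, 106 and 123 TMM-normalised CPM (counts scaled to library size) in dormant replicates 1 to 3 and at 760, 1006 and 876 CPM in activated replicates 1 to 3. The groups were far apart, and the activated libraries spread more than the dormant ones. The log2 fold change of COL5A1 was 2.90 ± 0.09 (SE, adjusted p = 1.24e-12, edgeR). COL5A2 stood at 154, 149 and 159 CPM in dormant and at 978, 1154 and 1043 CPM in activated libraries, a log2 fold change of 2.78 ± 0.06 (adjusted p = 4.36e-14, edgeR). In each activated library COL5A2 was above every dormant value by a wide margin. The FPKM ratio of COL5A1 to COL5A2 was 0.531, 0.464 and 0.506 in dormant and 0.505, 0.567 and 0.547 in activated libraries, so the 2 chains kept overlapping proportions across the states.

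COL27A1, a fibrillar collagen of cartilage and developing tissue, rose from 35.4 ± 0.646 to 106 ± 16.1 CPM (SD, n = 3), with a log2 fold change of 1.58 ± 0.09 (SE). The chains of type XI collagen, the minor fibrillar collagen of cartilage, went opposite ways. COL11A1 stood at 3.90, 4.04 and 3.64 CPM in dormant and at 21.7, 24.8 and 20.7 CPM in activated libraries, a 5.80-fold rise (adjusted p = 5.86e-11, edgeR). COL11A2 stood at 3.26, 3.96 and 2.54 CPM in dormant and at 0.351, 0.749 and 0.548 CPM in activated libraries, a 5.89-fold fall (adjusted p = 6.09e-06, edgeR). Neither gene had overlapping groups, and the FPKM ratio of COL11A1 to COL11A2 went from 1.28 ± 0.216 to 46.7 ± 16.2 (SD, n = 3).

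Chains of type I collagen, the main collagen of bone and of fibroblasts, were scarce. COL1A1 rose 1.52-fold, from 5.69, 4.50 and 5.09 CPM to 8.18, 7.43 and 7.65 CPM (adjusted p = 0.00189, edgeR). Its partner COL1A2 had 1 count in the 3 dormant and 2 counts in the 3 activated libraries together, and COL3A1, the chain of type III collagen, had 6 and 21. COL5A3, the third chain of type V collagen, had 2 counts in dormant and 33 in activated cells. The ratio of those COL5A3 counts was 16.5 (exact 95% interval 4.22 to 142), and the gene was too low to be tested. COL2A1, the cartilage collagen, had 0 dormant and 2 activated counts, and COL24A1 had 6 counts, all in dormant replicate 1.

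**Figure D2:**
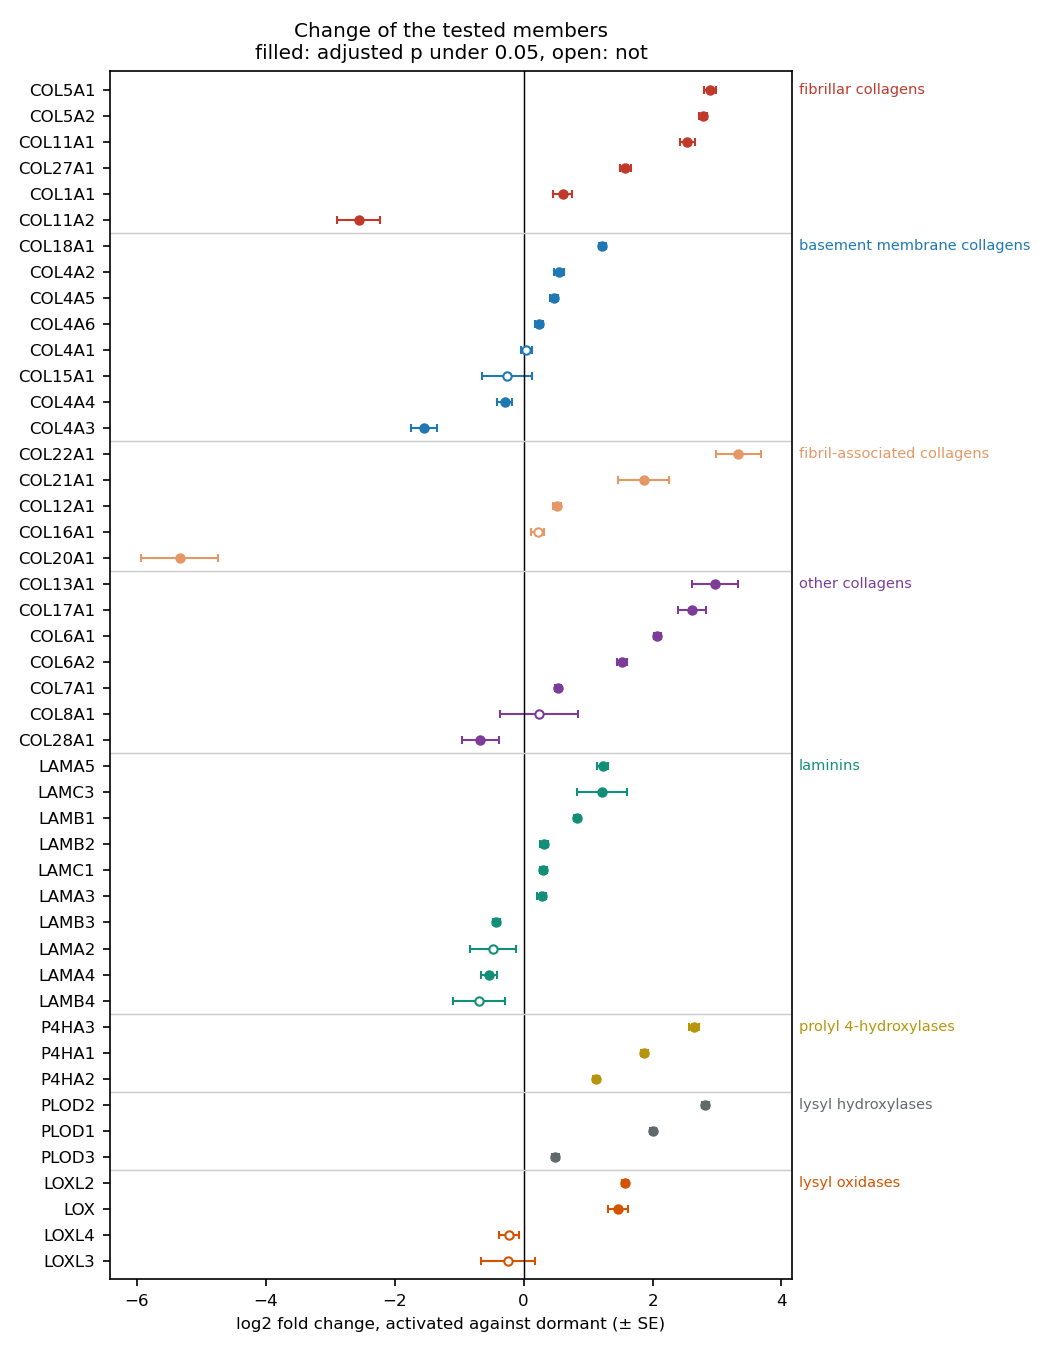
Log2 fold change, activated against dormant, of 46 tested members with its standard error, by class; filled points were called by edgeR's test at 0.05 and open points were not. Fibrillar collagens and enzymes lie mostly to the right of 0, and the basement membrane collagens lie on both sides, from -1.55 for COL4A3 to 1.22 for COL18A1.

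All 8 basement membrane collagens were tested, and 4 rose, 2 fell and 2 did not pass, with a median log2 fold change of 0.14. The 6 chains of type IV collagen are encoded by 3 pairs of genes that lie head to head, each pair transcribed outwards from a shared stretch of DNA. The main start sites in RefSeq were 127 bases apart for COL4A1 and COL4A2, 380 for COL4A6 and COL4A5 and 419 for COL4A4 and COL4A3. The bases between the start sites of COL4A1 and COL4A2 (GRCh38.p14, plus strand, the strand of COL4A2) are shown because the 2 genes next to them differed in their change, with every CG pair in capitals.
COL4A1-COL4A2, chr13:110307158-110307283: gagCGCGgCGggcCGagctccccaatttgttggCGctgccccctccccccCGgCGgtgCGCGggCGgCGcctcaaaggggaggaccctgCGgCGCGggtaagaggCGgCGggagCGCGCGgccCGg
This stretch of 126 bases holds 20 CG pairs and is 80.2% G or C.

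COL4A1 stood at 105, 77.8 and 93.7 CPM in dormant and at 90.8, 101 and 91.8 CPM in activated libraries, and its log2 fold change of 0.04 ± 0.09 (SE) did not pass (adjusted p = 0.695, edgeR). Its dormant and activated values overlapped. COL4A2, on the other side of the shared stretch, stood at 215, 167 and 205 CPM in dormant and at 262, 303 and 290 CPM in activated libraries. Its groups did not overlap, and its log2 fold change was 0.54 ± 0.08 (adjusted p = 2.37e-05, edgeR). The FPKM ratio of COL4A1 to COL4A2 was 0.202, 0.193 and 0.189 in dormant and 0.143, 0.138 and 0.131 in activated libraries. The level of this ratio depends on the gene lengths, and its relative change between the groups does not. With longest-transcript lengths, COL4A1 and COL4A2 would be at 14.6 and 31.6 FPKM in dormant cells and at 13.6 and 41.8 FPKM in activated cells. With the gene length correction COL4A1 was called higher, at a log2 fold change of 0.24 (adjusted p = 0.0128, edgeR). That correction used the authors' length of 15595 bases for COL4A1. GENCODE places 2 genes on the opposite strand that share exon bases with COL4A2, and the strand setting of the counting is not given.

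COL4A5 (log2 fold change 0.47 ± 0.06 SE) and COL4A6 (0.24 ± 0.06), the pair on chromosome X, both rose, COL4A5 from 110 ± 1.87 to 152 ± 14.1 CPM and COL4A6 from 159 ± 4.69 to 188 ± 14.7 CPM. The rise of COL4A6 ended with total counts (0.10, adjusted p = 0.141, edgeR). The third pair fell. COL4A3, best known from the kidney and lung basement membrane, stood at 7.75, 10.3 and 8.47 CPM in dormant and at 2.75, 3.95 and 2.35 CPM in activated libraries, a 2.92-fold fall (adjusted p = 4.88e-06, edgeR). COL4A4 went from 11.1 to 9.02 CPM, with a log2 fold change of -0.30 ± 0.12 (SE, adjusted p = 0.0324, edgeR). This call of COL4A4 missed the threshold without dormant replicate 1 (adjusted p = 0.117), dormant replicate 3 (0.0712), activated replicate 1 (0.0704) or activated replicate 3 (0.108), and with the length correction (0.359).

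COL18A1, a basement membrane collagen whose end fragment is endostatin, rose from 125, 133 and 142 CPM in dormant to 305, 315 and 309 CPM in activated libraries (log2 fold change 1.22 ± 0.05 SE, adjusted p = 4.19e-11, edgeR). It shares 1401 exon bases with SLC19A1, a folate transporter on the opposite strand, whose own counts rose 2.88-fold, and the part of shared reads in either value was not tested. COL15A1, its closest relative, had 19 to 36 counts per library and did not pass (adjusted p = 0.550, edgeR).

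Of the 15 collagens of other kinds, 7 were tested, and 5 rose, 1 fell and 1 did not pass. Type VI collagen forms beaded filaments from 3 different chains. COL6A1 stood at 28.3, 30.2 and 31.0 CPM in dormant and at 119, 130 and 128 CPM in activated libraries, a 4.21-fold rise, and COL6A2 rose 2.88-fold, from 40.1, 42.3 and 38.2 CPM to 103, 126 and 119 CPM. Both were separated by group in every library, while the third chain, COL6A3, had 2 dormant and 19 activated counts in all. COL7A1, which forms the anchoring fibrils under epithelia, had the highest collagen level of dormant cells at 41.4 ± 0.510 FPKM and rose 1.45-fold (adjusted p = 2.15e-07, edgeR). COL17A1, a transmembrane collagen of hemidesmosomes, rose 6.14-fold, from 1.16 ± 0.139 to 7.15 ± 1.42 CPM. COL13A1, another transmembrane collagen, stood at 0.721, 0.257 and 0.391 CPM in dormant and at 3.97, 3.77 and 3.02 CPM in activated libraries. It passed the filter through the activated group alone and could therefore only be seen to rise, here 7.82-fold. COL8A1 did not pass, and the fall of COL28A1 (log2 fold change -0.68, adjusted p = 0.0461, edgeR) missed the threshold whichever library was left out, at adjusted p from 0.0604 to 0.114.

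Of the 10 fibril-associated collagens, which bind to the surface of fibrils, 5 were tested, and 3 rose, 1 fell and 1 did not pass. COL12A1, a long chain of this kind, rose from 51.8 ± 2.60 to 74.4 ± 5.16 CPM, and COL16A1 went from 14.1 ± 0.939 to 16.4 ± 1.40 CPM without passing (adjusted p = 0.0634, edgeR). COL16A1 passed with the length correction (adjusted p = 0.00640), without dormant replicate 3 (0.0467) and without activated replicate 1 (0.0331). The largest rise and the largest fall of all tested members were both at low counts. COL22A1 had 7, 15 and 20 counts in dormant and 113, 154 and 121 in activated libraries, a 10.1-fold rise, and passed the filter through the activated group alone. COL20A1 had 60, 73 and 61 counts in dormant and 3, 0 and 1 in activated libraries, and passed through the dormant group alone. The ratio of the COL20A1 counts was 48.5 (exact 95% interval 18.6 to 180), and its fitted fold of 40.5 was 94.5 without activated replicate 1.

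The make-up of the collagen transcripts differed between the states. Summed over class on the FPKM scale, fibrillar chains went from 40.6 ± 1.40 to 238 ± 25.0 FPKM (SD, n = 3), basement membrane chains from 99.0 ± 3.81 to 139 ± 7.90 FPKM, and the other and fibril-associated chains from 58.6 ± 1.10 to 109 ± 7.02 and from 7.44 ± 0.341 to 9.38 ± 0.746 FPKM. These sums are descriptions, with no test. COL7A1 held the largest share of summed collagen FPKM in dormant cells, at 20.2% ± 0.671, and 11.0% ± 0.290 in activated cells. COL5A2 held 11.2% ± 0.0955 in dormant and 29.2% ± 0.250 in activated cells, and COL5A1 5.62% ± 0.376 and 15.7% ± 0.929.

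**Figure D3:**
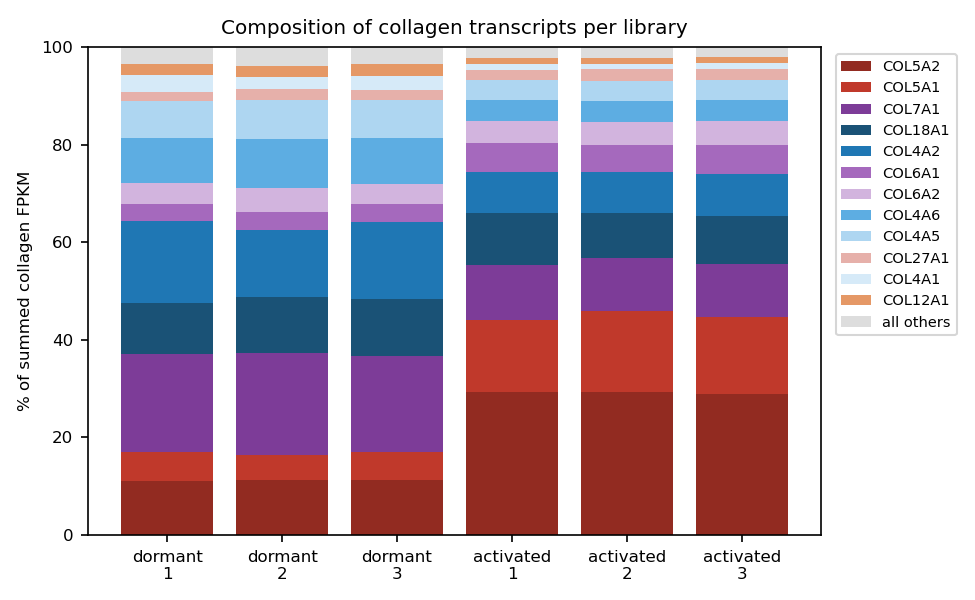
Share of each collagen chain in the summed collagen FPKM of each library, in percent, with all chains outside the 12 shown in grey. The red segments of COL5A2 and COL5A1 widen in all 3 activated libraries, to a mean of 29.2% and 15.7%, and the purple segment of COL7A1 narrows.

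Among the 12 laminin chains 11 were tested, and 7 rose, 2 fell and 2 did not pass, with a median log2 fold change of 0.30. The chains did not all change alike. LAMA3 and LAMB3 are chains of the laminin of epithelial hemidesmosomes. LAMB3 (chromosome 1, 209614870 to 209652425) stood at 117, 129 and 124 CPM in dormant and at 91.0, 93.4 and 91.7 CPM in activated libraries, a fall with a log2 fold change of -0.42 ± 0.05 (adjusted p = 3.48e-06, edgeR). LAMA3 stood at 121, 129 and 134 CPM in dormant and at 142, 172 and 152 CPM in activated libraries (log2 fold change 0.28 ± 0.07), and this rise ended with total counts (0.14, adjusted p = 0.0775, edgeR).

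The FPKM ratio of LAMB3 to LAMA3, which no scaling of libraries can move, was 2.44, 2.53 and 2.33 in dormant and 1.62, 1.37 and 1.52 in activated libraries. Every activated library lay below every dormant one in this ratio.

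**Figure D4:**
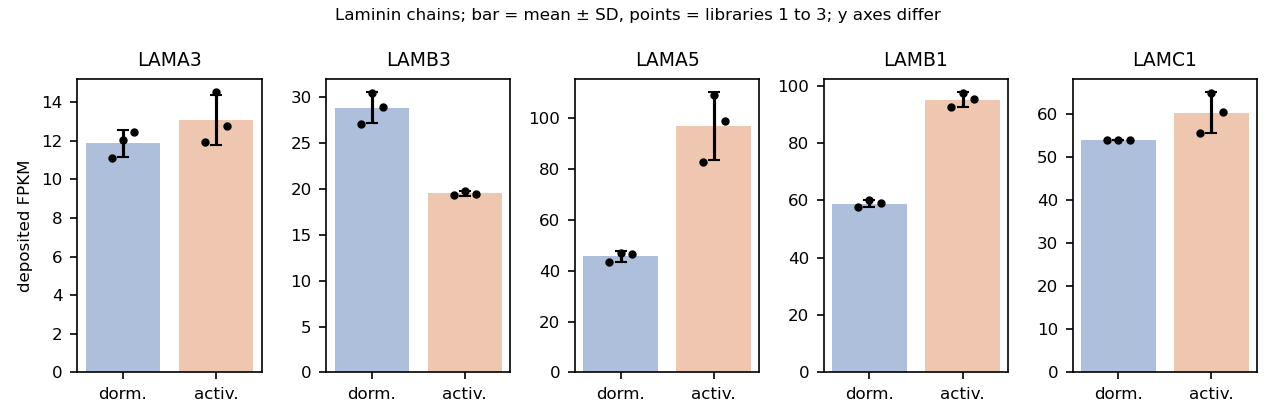
Deposited FPKM of the laminin chains LAMA3, LAMB3, LAMA5, LAMB1 and LAMC1; bars are means with SD, points are libraries 1 to 3 from left to right, and each y axis starts at 0 and has its own range. LAMA5 goes from 45.7 to 96.9 FPKM while LAMB3 goes from 28.9 to 19.5 FPKM.

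LAMA5, LAMB1 and LAMC1 make the laminin of most adult epithelial basement membranes. LAMA5 stood at 482, 514 and 516 CPM in dormant and at 1005, 1324 and 1201 CPM in activated libraries, a 2.33-fold rise (adjusted p = 2.29e-09, edgeR). LAMB1 rose 1.78-fold, from 365 ± 3.88 to 650 ± 16.6 CPM, and LAMC1 1.23-fold, from 408 ± 4.26 to 503 ± 38.4 CPM. LAMA5 shares exon bases with ADRM1, which rose 1.13-fold, and LAMB1 with DLD, which did not pass. The FPKM ratio of LAMA5 to LAMC1 went from 0.847 ± 0.0392 to 1.60 ± 0.102 (SD, n = 3). LAMB2, a beta chain known from the kidney filter and the nerve-muscle junction, rose 1.24-fold, and LAMA4, the alpha chain of blood vessels and muscle, fell 1.45-fold, from 13.8 ± 1.76 to 9.56 ± 0.990 CPM. LAMA2, LAMB4 and LAMC3 had 14 to 50 counts per library and LAMA1 at most 8. Of these, LAMC3 rose (log2 fold change 1.22, adjusted p = 0.0111, edgeR), a call that missed the threshold without dormant replicate 2 (adjusted p = 0.0554) or activated replicate 1 (0.0501).

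Of the 11 enzymes 10 were tested, and 8 rose, 2 did not pass and 0 fell, with a median log2 fold change of 1.52. With total counts LOXL4 was called lower (log2 fold change -0.36, adjusted p = 0.0462, edgeR). All 3 prolyl 4-hydroxylase alpha subunits rose. P4HA1 (chromosome 10, 73007217 to 73096866), the main catalytic subunit of most cells, stood at 29.5, 30.9 and 31.0 CPM in dormant and at 115, 111 and 108 CPM in activated libraries, a log2 fold change of 1.87 ± 0.06 (SE, adjusted p = 6.04e-13, edgeR). P4HA2 rose 2.17-fold, from 80.8 ± 1.12 to 176 ± 3.22 CPM. P4HA3, the scarcest subunit, stood at 8.98, 7.97 and 8.72 CPM in dormant and at 53.2, 51.6 and 56.0 CPM in activated libraries, a 6.26-fold rise (adjusted p = 4.83e-13, edgeR). The spread between libraries was small beside each change, and the FPKM ratio of P4HA1 to P4HA2 went from 0.690 ± 0.00988 to 1.16 ± 0.0355. Which of the 2 is higher in activated cells depends on gene length. For P4HA2 the authors' length was 5325 bases, against 3349 for the longest coding transcript. With longest-transcript lengths, P4HA1 and P4HA2 would be at 11.2 and 25.3 FPKM in dormant cells. In activated cells they would be at 37.3 and 49.9 FPKM. P4HA3 shares 166 exon bases with PPME1 on the opposite strand, which stood at 74.2 CPM in dormant cells and rose 1.28-fold. The part of shared reads in the P4HA3 values was not tested.

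The 3 lysyl hydroxylases also rose, and to different degrees. PLOD2 (chromosome 3, 146069440 to 146161184), which hydroxylates the collagen ends and sets the type of crosslink, stood at 194, 178 and 187 CPM in dormant and at 1309, 1331 and 1305 CPM in activated libraries. Its log2 fold change was 2.82 ± 0.05 (SE, adjusted p = 6.78e-15, edgeR), and the activated libraries lay close together. PLOD1, which acts on the helix, rose 4.02-fold, from 60.4 ± 3.12 to 243 ± 4.54 CPM. PLOD3, which also attaches sugars to hydroxylysine, rose 1.40-fold, from 81.1 ± 5.46 to 114 ± 3.72 CPM. PLOD3 shares 429 exon bases with ZNHIT1 on the opposite strand, whose counts rose 1.60-fold. PLOD2 took 48.5% to 51.5% of summed lysyl hydroxylase FPKM in dormant libraries and 74.1% to 74.3% in activated ones.

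Among the lysyl oxidases, LOXL2 was far above the rest, with 97.7% of their summed FPKM in dormant and 98.9% in activated cells. It stood at 385, 344 and 361 CPM in dormant and at 1091, 1056 and 1095 CPM in activated libraries, a 2.98-fold rise (adjusted p = 1.62e-12, edgeR). LOX, the founding member, stood at 3.15, 4.42 and 3.44 CPM in dormant and at 9.32, 10.6 and 10.5 CPM in activated libraries, a 2.75-fold rise (adjusted p = 8.88e-07, edgeR). For both genes the groups did not overlap. LOXL4, at 6.49, 5.94 and 5.56 CPM in dormant and 4.68, 5.53 and 5.21 CPM in activated libraries, did not pass (adjusted p = 0.206, edgeR), nor did LOXL3, with 13 to 34 counts per library. LOXL1 had too few counts to be tested, 8 in dormant and 33 in activated cells, with a count ratio of 4.12 (exact 95% interval 1.87 to 10.3). LOXL2 shares 120 exon bases with ENTPD4, which did not pass. LOX shares 138 with SRFBP1, and LOXL3 shares 841 with HTRA2 and DOK1. The part of shared reads in these lysyl oxidase values was not tested.

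P4HA1, PLOD2 and LOX are known targets of the hypoxia-inducible factor HIF, and ACGTG is a form of its core site. Other forms of that site were not searched for. The 250 bases before their RefSeq start sites are shown, 5′ to 3′ on the minus strand of GRCh38.p14 on which all 3 genes lie. They are shown because, of the 9 enzyme promoters given, these 3 hold ACGTG or its reverse complement CACGT. Each match is in capitals.
P4HA1, chr10:73096867-73097116: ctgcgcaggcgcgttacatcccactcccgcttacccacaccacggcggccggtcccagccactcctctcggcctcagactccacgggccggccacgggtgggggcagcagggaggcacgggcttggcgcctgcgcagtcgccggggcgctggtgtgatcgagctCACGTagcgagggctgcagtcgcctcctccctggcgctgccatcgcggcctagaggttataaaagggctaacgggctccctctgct
PLOD2, chr3:146161185-146161434: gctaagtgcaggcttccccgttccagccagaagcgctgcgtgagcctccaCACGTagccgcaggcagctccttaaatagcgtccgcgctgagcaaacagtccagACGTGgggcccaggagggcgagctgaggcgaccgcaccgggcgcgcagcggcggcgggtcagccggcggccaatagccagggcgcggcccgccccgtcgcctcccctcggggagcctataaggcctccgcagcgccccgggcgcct
LOX, chr5:122078260-122078509: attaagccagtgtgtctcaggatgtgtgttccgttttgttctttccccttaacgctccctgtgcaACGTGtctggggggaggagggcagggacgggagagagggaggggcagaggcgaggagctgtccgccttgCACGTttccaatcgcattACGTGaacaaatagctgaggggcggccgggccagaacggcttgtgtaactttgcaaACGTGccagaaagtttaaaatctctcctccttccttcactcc
Counted back from the start site to the first base of the match, P4HA1 has 1 match at 86, PLOD2 has 2 at 200 and 146, and LOX has 4 at 185, 116, 98 and 42 bases. These 5 letters are common, since 18.7% of 27305 promoters hold them in the same window on either strand. Among the 50 members whose promoter was given, 8 hold them (16.0%), 3 of 9 enzymes and 5 of 41 structural chains. P4HA2, PLOD1 and PLOD3 also rose, and their windows have 0 matches to ACGTG or CACGT. The window of P4HA2 lies inside the RefSeq span of the gene, which ends at 132227853, and so not before its outermost start. Whether these other enzymes are HIF targets was not looked up, so the matches do not sort targets from other genes. LOXL2 and P4HA3 rose as well, and no promoter was given for them. Among members that rose the share was 5 of 24 (20.8%), near that of all promoters. A match describes letters and is not a measured site.

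Genes of the surrounding pathway were taken from 4 lists. Of tested genes, 95.7% were called for folding and processing, 75% for basement membrane partners, 87.5% for fibril partners and 62.5% for receptors. Among all tested genes the share was 73.7%. Of 27 genes for collagen folding, trafficking and processing, 23 were tested, and 20 rose, 2 fell and 1 did not pass (median log2 fold change 0.87). P3H2 and P3H3, prolyl 3-hydroxylases, rose 5.08-fold and 3.69-fold, and PCOLCE, an enhancer of procollagen cleavage, rose 3.44-fold. P4HB, the shared beta subunit of the prolyl 4-hydroxylases, rose 2.13-fold from 722 to 1539 CPM, and SERPINH1, the collagen chaperone HSP47, rose 1.56-fold. The FPKM ratio of P4HA1 to P4HB was 0.0355 ± 0.00118 in dormant and 0.0609 ± 0.00243 in activated cells. MIA2, a partner in the exit of large cargo from the endoplasmic reticulum, fell 2.22-fold. COLGALT2, which adds galactose to hydroxylysine, had 39, 33 and 17 counts in dormant and 1, 7 and 0 in activated libraries. It passed the filter through the dormant group alone, and its fitted fall of 9.70-fold was 43.1-fold without activated replicate 2.

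**Figure D5:**
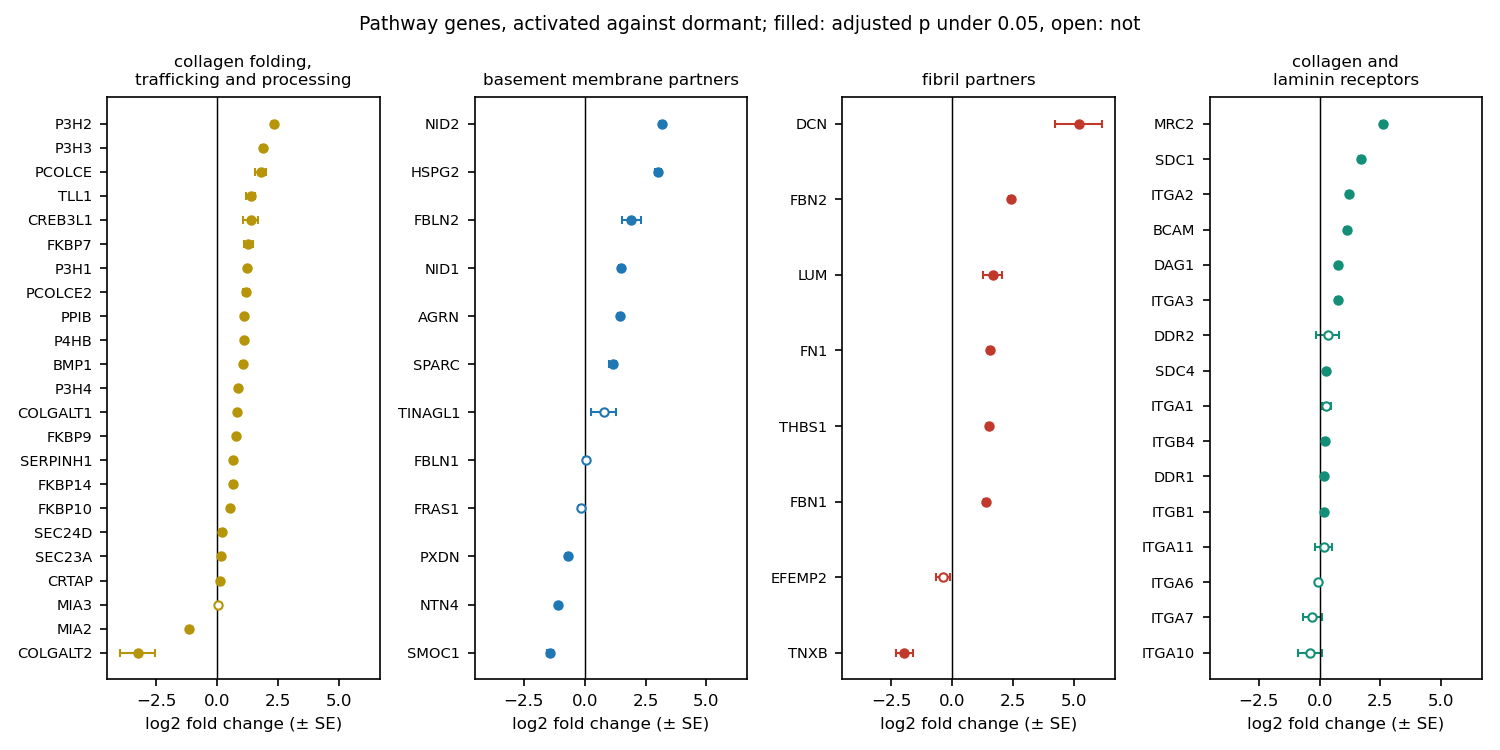
Log2 fold change, activated against dormant, with its standard error, of the tested genes of 4 pathway lists; filled points were called by edgeR's test at 0.05 and open points were not. Most genes for folding and processing lie to the right of 0, with MIA2 and COLGALT2 to the left, and the receptors lie between -0.40 and 2.60.

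Of 15 basement membrane partners, 12 were tested, and 6 rose, 3 fell and 3 did not pass (median 0.96). NID2 and HSPG2, which encode nidogen and perlecan, the links between the laminin and type IV collagen networks, rose 8.99-fold and 8.02-fold, and FBLN2, at 0.442 ± 0.177 CPM in dormant cells, rose 3.78-fold. HSPG2 stood at 69.6, 72.3 and 71.7 CPM in dormant and at 437, 684 and 593 CPM in activated libraries. SMOC1 fell 2.70-fold, NTN4, a laminin-related netrin, fell 2.14-fold, and PXDN, the peroxidase that crosslinks type IV collagen, fell 1.60-fold. Of 18 fibril partners 8 were tested, and 6 rose, 1 fell and 1 did not pass (median 1.53). FBN2, a fibrillin of microfibrils, rose 5.39-fold, and LUM, a proteoglycan of fibrils, rose 3.16-fold from 0.780 ± 0.392 CPM. TNXB fell 3.89-fold. DCN, another fibril proteoglycan, had 1 dormant and 46 activated counts and passed through the activated group alone, and its fitted fold of 36.6 was 127 without dormant replicate 2.

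Of 18 receptors for collagen and laminin, 16 were tested, and 10 rose, 0 fell and 6 did not pass (median 0.27). With total counts 6 rose and 1 fell. MRC2, which takes up collagen for breakdown, rose 6.06-fold, from 35.5, 45.9 and 43.3 CPM to 234, 270 and 251 CPM. SDC1, a heparan sulfate proteoglycan, rose 3.21-fold and ITGA2, the collagen-binding integrin chain, 2.28-fold. ITGA6, a laminin-binding integrin chain of hemidesmosomes, stood at 96.9 ± 1.98 CPM in dormant and 93.0 ± 4.23 CPM in activated cells and did not pass (edgeR adjusted p = 0.318). Other laminin-binding integrin chains differed from it. ITGA3 rose 1.67-fold and ITGB4 1.17-fold, the latter with overlapping groups, and ITGA7 did not pass.

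Markers of the cell types involved were read beside these results. Of the epithelial markers, KRT8 and KRT18 were abundant in both groups (1672 and 1039 CPM in dormant cells) and rose 2.07-fold and 1.91-fold. CDH1 rose 2.37-fold, KRT7 fell 1.12-fold from 2165 CPM, and KRT19 did not pass. EPCAM fell, and stood at 1.28 ± 0.513 CPM in dormant and 0.611 ± 0.185 CPM in activated cells. The 6 epithelial markers summed to 4983 to 5675 CPM in dormant and 7432 to 8369 CPM in activated libraries, with 3 higher and 2 lower and with none at 0. The 13 osteoblast and stromal markers, cells that make much collagen, summed to 54.4 to 56.0 CPM in dormant and 45.1 to 49.4 CPM in activated libraries, with 3 of the 6 tested higher and 1 lower, and with ASPN, POSTN and IBSP at 0 counts throughout. In that list PDGFRA rose 6.93-fold, from 0.116 to 0.824 CPM, DCN and LUM rose as given above, and RUNX2 fell 1.76-fold. The 12 osteoclast markers summed to 58.4 to 61.5 CPM in dormant and 253 to 335 CPM in activated libraries, with 2 of 8 tested higher and 4 lower. ITGB3, an integrin chain, made up 5.88 CPM of the dormant and 265 CPM of the activated mean, and CALCR, DCSTAMP and OCSTAMP were at 0. MMP9 rose 5.28-fold, from 0.143 to 0.770 CPM. ATP6V0D2 fell 267-fold, from 19.3 to 0.0707 CPM, ACP5 10.8-fold, NFATC1 1.81-fold and CTSK 1.32-fold. The 14 myeloid markers summed to 136 CPM or more in dormant and to 166 to 174 CPM in activated libraries, most of it CD68 (135 and 152 CPM on average), and TYROBP, AIF1, C1QA, C1QB and C1QC were at 0. All 5 tested were higher, CD68 by 1.13-fold, ITGAM by 1.73-fold, CD14 by 8.37-fold (1.10 to 9.25 CPM), LAPTM5 by 9.29-fold (0.224 to 2.10 CPM) and CSF1R by 8.42-fold (0.0877 to 0.774 CPM). PDGFRA, MMP9, LAPTM5 and CSF1R passed the filter through the activated group alone, and ATP6V0D2 and ACP5 through the dormant group alone. What other cells contributed to the changes of the members was not tested.

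The remaining members were at or near the limit of detection. Of the 20 members that were not tested, 5 had 0 counts in every library (COL9A1, COL10A1, COL19A1, COL23A1 and COL6A6), which allows up to 0.0281 CPM over each group, and the other 15 had at most 16 counts in any library. COL14A1 had 21 counts in dormant cells and 1 in activated cells (exact 95% interval of the ratio 3.38 to 869), and COL9A2 had 2 and 24, 16 of them in activated replicate 3. COL6A5 had 18 dormant counts, 13 of them in replicate 2, and 0 activated counts.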

How the data were processed

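RNA of 6 A549 libraries had been extracted with TRIzol and prepared with a VAHTS Universal V6 kit, per the labels. The authors deposited whole-number counts for gene symbols, and FPKM values that match these counts once scaled by gene length and library total. The submitters' processing notes name fastp, HISAT2, HTSeq and GRCh38, and the sources used here give no version, annotation or strand setting. Total counts lay between 34128471 and 36667725 per library. The count of 3 behind a limit for genes at 0 and the exact binomial 95% intervals cover counting error only. No source says that libraries came from separate cultures, so p-values reflect a spread between libraries that may be purely technical.

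Genes passing edgeR's group-wise expression filter were fitted together by a quasi-likelihood model in edgeR 4.0.16 under R 4.3.3, after TMM scaling, and p-values of the 13336 genes were adjusted by Benjamini-Hochberg at 0.05. CPM are counts scaled to library size by TMM. A standard error was taken as the size of the log2 fold change over the root of its F statistic. Simulated data with known changes were used to test the fit. Alternatives were DESeq2 size factors, total counts, DESeq2 1.42.0, limma voom (limma 3.58.1), 2 other filters, a replicate block, leaving out each library, limma on log2(FPKM + 1) or log2(FPKM + 0.1), and a loess correction for gene length added after the data were seen.

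The members, classes and pathway lists were chosen with earlier results of these data known. Full statistics were planned for tested members with a mean FPKM of at least 1 in either group and for the 3 largest rises and 3 largest falls, and, in each pathway list, for up to 3 called genes in each direction. Other genes are named after their values were seen. Coordinates (1-based) and promoters came from RefSeq GRCh38.p14, which held coordinates for all 67 members and promoters for 50. Exon overlaps and transcript lengths came from GENCODE 29 on GRCh38. The values of 1 member are not reported here, though the counts over lists include it.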

Additional observations from a re-analysis of the deposited data

How the results depend on the processing

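Of 39 members called, between 36 and 39 were called in the same direction under each alternative other than limma on FPKM filtered at 0.5, which tested 36 members and called 31 of the 39 in the same direction, and LOXL4 besides. Genes chosen by the naming rule kept their direction and their side of the threshold in 920 cases, lost a call in 8 (COL4A6 and LAMA3) and gained one in 8, and none reversed. Outside that rule, COL28A1 lost its call under 9 alternatives, COL4A4 under 5 and LAMC3 under 2. Members called higher numbered 32, and 32 to 34 when 1 library was left out. Members called lower numbered 7, and 5 to 6 when 1 library was left out, with COL4A4 and COL28A1 as the falls lost. Basement membrane collagens called lower went from 2 to 1 with the length correction and to between 1 and 2 when 1 library was left out. With filtered log2(FPKM + 1) or log2(FPKM + 0.1), 0 fibrillar collagens were lower, since COL11A2 was filtered out. LOXL4 gave 1 enzyme lower with total counts and with each of the 3 FPKM fits. For collagen folding genes, 1 was lower with the filter of 1 CPM and with both filtered FPKM fits, which left out COLGALT2. For fibril partners, 2 were lower with unfiltered log2(FPKM + 1). For receptors, 6 were higher and 1 lower with total counts and with each of the 3 FPKM fits, which are scaled by the same totals. With the replicate number as a block, 32 members were higher and 6 lower, the call of COL28A1 being lost (adjusted p = 0.0779, edgeR). Same-numbered libraries had deviations correlated at 0.00229, 0.0177 and 0.00333, and 1 of 3 dormant libraries correlated best with its own number, which gave no ground for pairing. Depth limited the 20 untested members and those with few counts in 1 group.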

Other observations

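Within the activated group the structural chains were highest in the same library. In CPM, 28 of 37 tested collagen and laminin chains (75.7%) were highest in activated replicate 2, against 35.5% of all tested genes and 50.8% of the 5090 tested genes with a length of at least 5000 bases. All 17 structural chains with a mean of at least 10 FPKM in activated cells, a limit set after the values were seen, were highest there, while 4 of the 10 tested enzymes were. In the dormant group 13 of the 37 chains were highest in replicate 2. COL5A1, for example, stood at 1006 CPM in activated replicate 2 and at 760 and 876 CPM in the other activated libraries, and PLOD2 at 1331, 1309 and 1305 CPM. The structural chains had a median length of 7540 bases, the enzymes 3798 and all tested genes 4066, and the part of length in this pattern was not tested. Without activated replicate 2, 33 members were higher and 6 lower.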
